A study of Mus musculus with 12 samples.

Results

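The respiratory chain genes examined here encode the subunits and named assembly factors of the 5 complexes of oxidative phosphorylation. They were chosen by symbol: every gene whose symbol starts with mt-, Nduf, Uqcr, Cox or Atp5, and Sdha to Sdhd. Of 23077 genes in the deposited table, 130 matched, and 113 of these reached 10 in 3 or more of the 11 libraries. They comprised 100 nuclear genes and the 13 protein-coding genes of the mitochondrial genome, which are described apart. Of the 17 that did not pass, 9 were pseudogenes, and the other 8 were Cox4i2, Cox6a2, Cox6c2, Cox7b2, Cox8b, Ndufa11b, Ndufb11b and Ndufs6b.

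Complexes I and II pass electrons to coenzyme Q, complex III passes them on to cytochrome c, and complex IV (cytochrome c oxidase) hands them to oxygen. Complexes I, III and IV pump protons, and the ATP synthase uses the return flow to make ATP. Complex II is built from nuclear genes only, while the other complexes combine nuclear subunits with a few encoded in mitochondrial DNA, whose RNA is copied as long polycistronic transcripts and cut at the transfer RNAs between genes.

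RNA was taken from primary mouse embryonic fibroblasts of Hb9::GFP genotype, whose GFP marks motor neurons, during conversion to induced motor neurons. All 4 groups carried a retrovirus for Ngn2, Isl1 and Lhx3 (NIL), were moved to N3 medium 3 days after infection and were collected on day 4. RISDD cells additionally received HRAS(G12V), a constitutively active RAS, followed by an IRES and SNAP-tagged p53DD, a dominant-negative p53 fragment. SDDIR cells received the same pair with the p53DD fusion first and HRAS(G12V) after the IRES. SDD cells received the p53DD fusion alone, and NIL cells neither. RISDD, SDDIR and SDD cells also had RepSox, which blocks TGF-beta receptor signalling, from day 3 and were sorted as SNAP-positive. NIL cells had no RepSox and were sorted as live single cells. p53DD, RepSox and the sort therefore changed together between SDD and NIL and cannot be told apart. RISDD, SDD and NIL had 3 libraries each (A, B and C) and SDDIR had 2. The labels call the replicates biological without naming separate cultures, so p-values measure the spread between these samples. In bulk RNA, fewer cells of a type and less RNA per cell cannot be told apart.

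The values are signal: gene counts that the authors had divided by a constant per library, from 14872639 to 29815073 recovered reads a library. NIL C stood apart from NIL A and NIL B, so the main counts below are given with and without it. Fibroblast markers (8 of 8 in the table, none at 0 in a whole group) summed to 86175 to 88835 in RISDD, 158751 to 164192 in SDDIR, 551115 to 684035 in SDD and 735283 to 1069879 in NIL. The highest NIL sum was that of NIL C, while NIL A and B summed to 735283 to 763483. Pdgfra went against the sum, with 7316, 6047 and 7325 in SDD and 3682, 3048 and 3541 in NIL A, B and C. SDD and NIL overlapped for Dcn, Lum, Thy1 and Postn, and SDD was lower for Col1a1, Col1a2 and Col3a1. Epithelial markers (5 of 5) summed to 8642 to 12725 in RISDD, 2428 to 3762 in SDDIR, 59.6 to 72.2 in SDD, where Cdh1 was at 0, and 895 to 989 in NIL, of which Dsp alone made up 840 to 882. Leukocyte markers (10 of 10) summed to 691 to 1243 in RISDD, of which Cd68 alone made up 506 to 779, 365 to 913 in SDDIR, where Cx3cr1 was at 0, 638 to 1736 in SDD and 3842 to 14882 in NIL. Cd68 had 316 and 345 in SDDIR A and B. Endothelial markers (4 of 4) summed to 495 to 599 in RISDD, 156 to 166 in SDDIR, 71.0 to 100.1 in SDD and 46.4 to 82.5 in NIL, with Tie1 at 0 in SDDIR and NIL. The part of these markers in the results below was not tested.

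The 13 mitochondrially encoded genes took 3.38%, 4.04% and 3.35% of the signal in RISDD A, B and C, 3.73% and 3.70% in SDDIR A and B, 2.93%, 2.94% and 2.60% in SDD A, B and C, and 3.62% and 4.00% in NIL A and B. In NIL C they took 0.537%. Without NIL C, every SDD library lay below every library of the other groups. The mean was 3.59% ± 0.39 in RISDD (SD, n = 3), 3.72% ± 0.021 in SDDIR (SD, n = 2) and 2.83% ± 0.19 in SDD (SD, n = 3). The share was 0.766 percentage points higher in RISDD than in SDD, and 0.894 points higher in SDDIR than in SDD. Between SDD and NIL, the difference was 0.105 points with NIL C and -0.986 points without it, so this 1 library decides its direction.

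**Figure D1:**
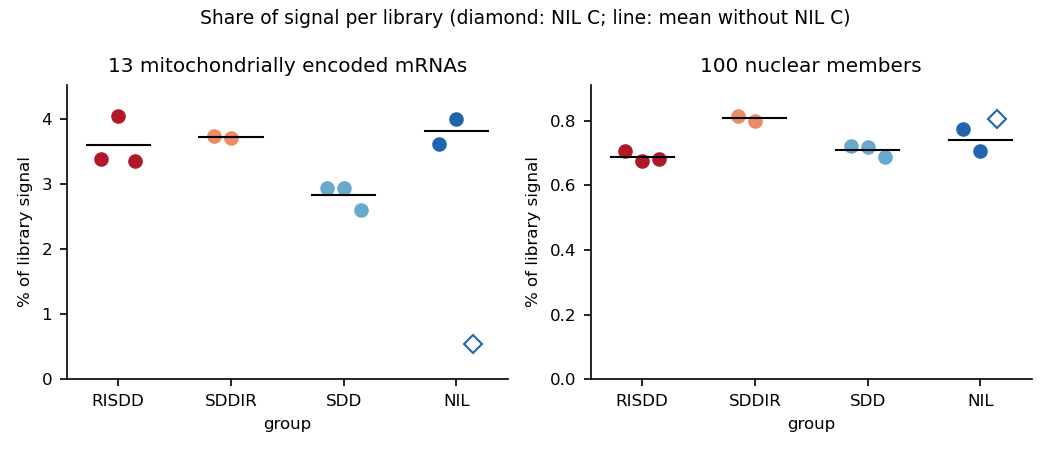
Share of each library's signal (percent, vertical axis) from the 13 mitochondrially encoded genes (left) and the 100 nuclear members (right), by group; each point is a library, the open diamond is NIL C and the line is the group mean without NIL C. NIL C sits at 0.537% on the left, and the 3 SDD libraries lie below the other groups' remaining libraries.

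The 100 nuclear members together took 0.707%, 0.677% and 0.682% of the signal in RISDD, 0.815% and 0.800% in SDDIR, 0.722%, 0.719% and 0.687% in SDD, and 0.776%, 0.707% and 0.807% in NIL A, B and C. Both SDDIR libraries lay above every RISDD and SDD library, and NIL C lay between them. The ratio of mitochondrially encoded to nuclear signal was 4.78, 5.97 and 4.92 in RISDD, 4.58 and 4.63 in SDDIR, 4.06, 4.08 and 3.79 in SDD, 4.67 and 5.66 in NIL A and B, and 0.665 in NIL C. NIL C was lowest in this ratio and the SDD libraries came next.

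The compact mouse mitochondrial genome lets some reading frames overlap, and a count tool that assigns reads to transcripts has to divide reads that fall there. mt-Atp8 and mt-Atp6, which encode subunits of the ATP synthase, share 43 bases, and mt-Nd4l and mt-Nd4, which encode complex I subunits, share 7. Both junctions are shown because the values of the short partner rest on how such reads were divided. They are printed 5′ to 3′ on the + strand from GENCODE M21 (GRCm38, chrM:7897-7999 and chrM:10137-10203; the deposited values were made on GRCm39), with the shared bases in capitals.
mt-Atp8 and mt-Atp6: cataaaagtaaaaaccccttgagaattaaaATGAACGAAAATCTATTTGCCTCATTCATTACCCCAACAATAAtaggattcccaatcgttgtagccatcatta
mt-Nd4l and mt-Nd4: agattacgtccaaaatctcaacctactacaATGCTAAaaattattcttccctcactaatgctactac
mt-Nd5 and mt-Nd6 also share 14 bases, on opposite strands. The library kit marks strand, but the sources used here do not say whether counting used it, so the values of mt-Nd6 are uncertain. RNA was also selected by poly(A), and the part of this selection in the values of mt-Nd6 was not tested.

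Of the complex IV subunits, mt-Co1, the catalytic subunit, had signals of 161938, 191385 and 162685 in RISDD, 176825 and 188353 in SDDIR, 134013, 145555 and 126931 in SDD, and 169763, 178899 and 32950 in NIL A, B and C. Per kilobase of gene, mean mt-Co1 signal was 111329 in RISDD, 118181 in SDDIR, 87702 in SDD, 112835 in NIL A and B and 21327 in NIL C. All 5 libraries with HRAS(G12V) lay above all 3 SDD libraries. mt-Co2, which carries the copper centre that accepts electrons from cytochrome c, had 78849, 96327 and 70502 in RISDD, 80027 and 84736 in SDDIR, 57305, 60324 and 52081 in SDD, and 76186, 81248 and 15568 in NIL A, B and C. mt-Co3, the remaining mitochondrially encoded subunit of complex IV, had 61953, 65365 and 55627 in RISDD, 58993 and 60504 in SDDIR, 55810, 53971 and 49398 in SDD, and 73240, 77874 and 12405 in NIL A, B and C. RISDD and SDD did not overlap for mt-Co2 and overlapped for mt-Co3, while SDDIR lay above SDD for both.

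For the ATP synthase, mt-Atp6, the proton channel subunit, had 74299, 93220 and 78579 in RISDD, 77042 and 77469 in SDDIR, 59178, 59967 and 51397 in SDD, and 70129, 79344 and 6583 in NIL A, B and C. mt-Atp8 had 11902, 26886 and 21446 in RISDD, 16462 and 14999 in SDDIR, 14249, 12716 and 11860 in SDD, and 12144, 21733 and 276 in NIL A, B and C. The HRAS libraries lay above SDD for mt-Atp6, whereas RISDD A lay inside the SDD range for mt-Atp8. mt-Cytb, the central subunit of complex III, had 74363, 85945 and 70523 in RISDD, 70352 and 73717 in SDDIR, 60597, 59536 and 52526 in SDD, and 79173, 86188 and 17609 in NIL A, B and C. As for mt-Co1, every RISDD and SDDIR library was above every SDD library for mt-Cytb.

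The 7 complex I subunits were less alike. mt-Nd1 had 51061, 64030 and 43479 in RISDD, 44711 and 47631 in SDDIR, 43678, 41904 and 35932 in SDD, and 55039, 62646 and 7257 in NIL A, B and C. mt-Nd2 had 24764, 36532 and 28679 in RISDD, 27562 and 25842 in SDDIR, 26205, 23633 and 21593 in SDD, and 31478, 40287 and 2197 in NIL A, B and C. RISDD overlapped SDD for both, and SDDIR overlapped SDD for mt-Nd2. mt-Nd4 had 40473, 50275 and 39739 in RISDD, 38358 and 37016 in SDDIR, 40523, 38817 and 33671 in SDD, and 53472, 62607 and 8850 in NIL A, B and C. mt-Nd5 had 32692, 37815 and 33021 in RISDD, 30775 and 29681 in SDDIR, 34265, 29920 and 31918 in SDD, and 50011, 56454 and 7891 in NIL A, B and C. RISDD and SDDIR overlapped SDD for mt-Nd4 and mt-Nd5, and NIL A and B lay above every other library for both.

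Among the short complex I genes, mt-Nd4l had 7248, 8358 and 6980 in RISDD, 6175 and 6976 in SDDIR, 6417, 6631 and 5954 in SDD, and 9410, 9788 and 937 in NIL A, B and C. mt-Nd3 had 3146, 9361 and 8036 in RISDD, 5718 and 5758 in SDDIR, 3506, 2947 and 3456 in SDD, and 4127, 8433 and 213 in NIL A, B and C. mt-Nd3 differed between RISDD A and the other RISDD libraries by more than RISDD differed from SDD. mt-Nd6, the only one of the 13 on the other strand, had 281, 456 and 611 in RISDD, 412 and 432 in SDDIR, 277, 200 and 205 in SDD, and 290, 394 and 18.4 in NIL A, B and C. Its mean per kilobase was 866 in RISDD, 813 in SDDIR, 438 in SDD and 658 in NIL A and B, the lowest of the 13 in each of these groups. The 4 genes under 600 bases (mt-Atp8, mt-Nd3, mt-Nd4l and mt-Nd6) spanned a wider range at their most variable: without NIL C, their highest library was 1.64 to 3.18 times their lowest, against 1.51 to 1.90 times for the 9 longer genes.

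**Figure D2:**
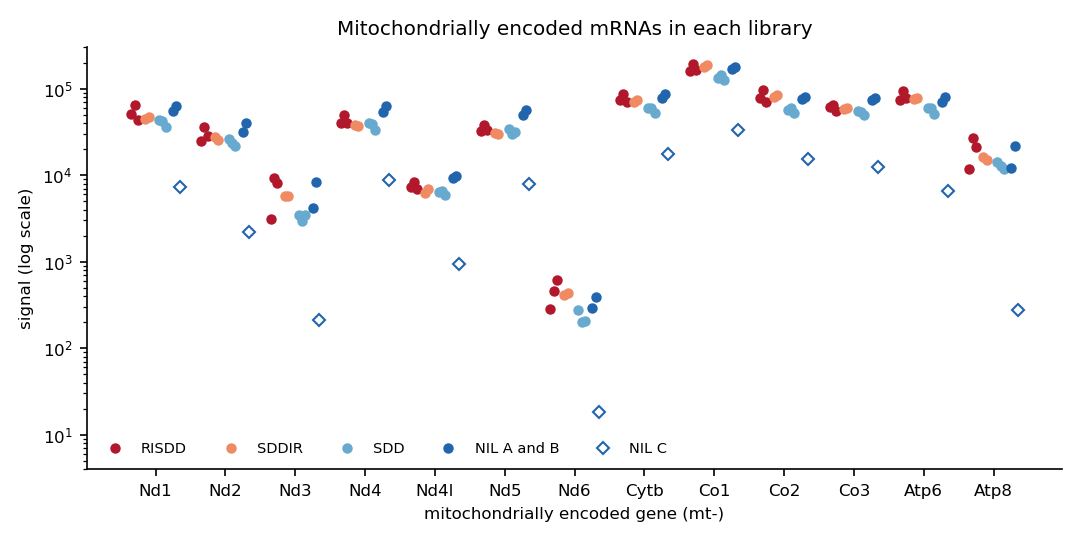
Signal (vertical axis, log scale) of each of the 13 mitochondrially encoded genes in each library, with RISDD, SDDIR, SDD and NIL from left to right; open diamonds are NIL C. NIL C lies 4.70-fold (mt-Cytb) to 61.4-fold (mt-Atp8) below the mean of NIL A and B.

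With all 11 libraries in 1 fit (limma on log2(value + 1), Benjamini-Hochberg adjustment over 14207 genes), 0 of the 13 passed in any of the 4 comparisons, and 0 had an unadjusted p under 0.05. edgeR and DESeq2 on the recovered reads also called 0. In the limma fit, 1377 to 6046 of all genes passed, depending on the comparison, and 3375 to 7100 had an unadjusted p under 0.05. The standard errors were wide: mt-Co1 had a log2 change of 0.34 in RISDD relative to SDD with a standard error of 0.51 (limma, adjusted p = 0.625). The fit pools the spread of all groups, NIL C included.

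Without NIL C, 8 of 13 passed as higher in RISDD than in SDD, against 32.2% of all genes tested, and 0 as lower. These were mt-Atp6, mt-Co1, mt-Co2, mt-Co3, mt-Cytb, mt-Nd1, mt-Nd4l and mt-Nd6. mt-Co2 had a log2 change of 0.52 (SE 0.11, limma adjusted p = 0.00134), mt-Atp6 one of 0.53 (SE 0.095, limma adjusted p = 0.000689) and mt-Nd5 one of 0.11 (SE 0.081, limma adjusted p = 0.269). For SDDIR against SDD, 5 of 13 passed as higher, against 21.6% of all genes. They were mt-Atp6, mt-Co1, mt-Co2, mt-Cytb and mt-Nd6. mt-Co1 had a log2 change of 0.43 (SE 0.091, limma adjusted p = 0.00322). These 2 comparisons share the SDD libraries.

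Without NIL C, 10 of 13 passed as lower in SDD than in NIL, against 13.8% of all genes. mt-Atp8, mt-Nd3 and mt-Nd6 did not pass. The largest change among the 10 was that of mt-Nd5, at -0.73 on the log2 scale (SE 0.090, limma adjusted p = 0.000385). With NIL C the same gene had an estimate of 0.18 (SE 0.58, limma adjusted p = 0.841). SDD and NIL without NIL C did not overlap for 12 of the 13, all lower, against 26.6% of all genes, and with NIL C they overlapped for all 13. Leukocyte markers were also lower in SDD than in NIL (638 to 1736 against 3842 to 14882), and their part in this difference was not tested.

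Between RISDD and SDDIR, 0 of the 13 passed with limma without NIL C as well, and 0 had an unadjusted p under 0.05. Of 14138 genes tested without NIL C, 4186 passed and 5810 had an unadjusted p under 0.05. For the 13, the median log2 change was 0.11, and 11 of 13 estimates were above 0. Under quantile scaling, only 4 of the 13 were above 0. With libraries scaled to genes that are not mitochondrially encoded, 6 were above 0, while 11 lay above the median of all genes, itself -0.10. Groups did not overlap, with RISDD higher, for mt-Nd4, mt-Nd4l and mt-Nd5, against 31.0% of all genes. Against SDD, the same scalings left all 13 estimates above 0 in RISDD and in SDDIR, where mt-Nd5 alone was below 0 without them. For SDDIR they also raised the median of all genes to 0.10, and 12 (quantile scaling) and 11 of the 13 lay above it. For RISDD under quantile scaling, 11 lay above the median of all genes, 0.082.

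Most nuclear members differed little between groups. Few passed by limma in the fit of all 11 libraries, and the shares called were below those of all genes in each comparison. For SDD against NIL, 0 of 100 passed as higher and 3 as lower, against 9.32% and 8.26% of all genes. This count depended on the method: DESeq2 called 19 lower, against 13.1% of all genes, and limma after a correction for GC content called 17 lower, against 13.3%. For SDDIR against SDD, 3 passed as higher and 3 as lower, against 8.66% and 13.9%. For RISDD against SDD, 3 passed as higher and 10 as lower, against 20.0% and 22.6%. For RISDD against SDDIR, 0 passed in either direction by limma, against 4.64% and 5.05%. Of the 100 members, 8 had an unadjusted p under 0.05 there, against 3375 of all 14207 genes. edgeR called 0, against 5.41% of all genes lower, and DESeq2 called 4 lower, against 8.21%.

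Without NIL C the counts were larger, as they were for all genes. For SDD against NIL, 1 passed as higher and 14 as lower, against 15.3% and 13.8% of all genes. For SDDIR against SDD, they were 18 and 5, against 21.6% and 23.2%. For RISDD against SDD, they were 15 and 25, against 32.2% and 31.3%. For RISDD against SDDIR, they were 1 and 16, against 15.0% and 14.6%. As a share of the 100, these counts were slightly above that of all genes for the lower calls in SDD against NIL and in RISDD against SDDIR, and below it in the others. Without NIL B, 21 passed as lower in SDD than in NIL, against 9.12% of all genes.

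**Figure D3:**
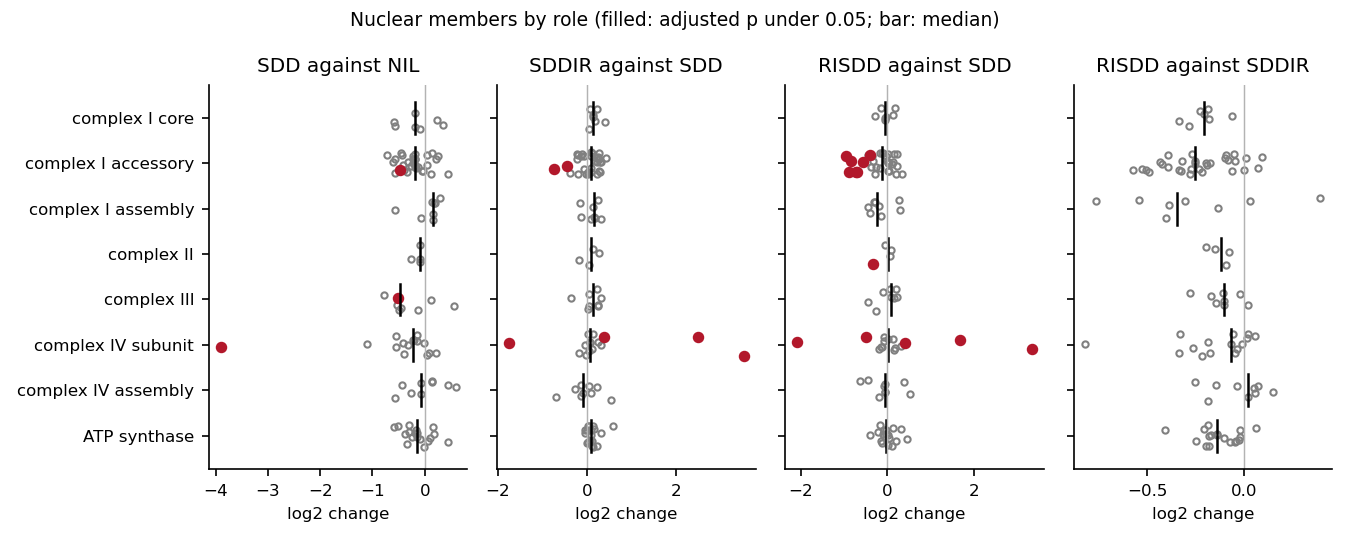
Log2 change (horizontal axis) of the 100 nuclear members by role in the 4 comparisons, fitted with all 11 libraries; filled points passed at an adjusted p under 0.05 (limma), open points did not, and the bar is the median of each role. The complex IV subunits hold both the highest and the lowest change that passed in SDDIR against SDD and in RISDD against SDD, and no point is filled for RISDD against SDDIR.

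The largest changes were those of tissue-specific isoforms of complex IV, all at low signal. Cox6b2, the testis form of the subunit COX6B, had signals of 9.89, 18.2 and 25.3 in RISDD, 29.6 and 30.8 in SDDIR, 2.26, 7.74 and 4.91 in SDD, and 89.5, 76.9 and 79.6 in NIL A, B and C. The groups followed the order NIL, SDDIR, RISDD, SDD without overlap. Cox6b2 fell by 3.91 on the log2 scale in SDD relative to NIL (15.0-fold on the log2(value + 1) scale, SE 0.44, limma adjusted p = 0.000593). It rose by 2.50 in SDDIR (SE 0.49, limma adjusted p = 0.00456) and by 1.68 in RISDD (SE 0.44, limma adjusted p = 0.0105), each relative to SDD. The RISDD call was lost without RISDD C (adjusted p = 0.0511). With 10 added in place of 1, the log2 changes were -2.63 in SDD against NIL, 1.44 in SDDIR against SDD and 0.87 in RISDD against SDD, and each still passed. Genes were tested where at least 3 libraries had a signal of 10 or more, and Cox6b2 reached it without any SDD library, so its low place in SDD is tied to that filter. The 3 calls were also made with no filter. NIL C did not stand apart for Cox6b2.

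Cox6b1, the form of the same subunit found in most tissues, had 2027, 2070 and 2019 in RISDD, 1923 and 1998 in SDDIR, 1995, 1839 and 1775 in SDD, and 2192, 2083 and 2163 in NIL. It did not pass in any comparison, with log2 changes from -0.20 (SDD against NIL, SE 0.098, limma adjusted p = 0.179) to 0.13 (RISDD against SDD, SE 0.098, limma adjusted p = 0.331). The promoters of both forms and of Cox7a1 are shown because these isoforms differ most in how their signal varied. Each run holds the 250 bases before the gene's start, 5′ to 3′ on the gene's strand, from RefSeq (GRCm38.p6): chr7:4753095-4753344, - strand, for Cox6b2, chr7:30626115-30626364, - strand, for Cox6b1 and chr7:30183921-30184170, + strand, for Cox7a1. Capitals mark a match to CCGGAAG or its reverse complement.
Cox6b2: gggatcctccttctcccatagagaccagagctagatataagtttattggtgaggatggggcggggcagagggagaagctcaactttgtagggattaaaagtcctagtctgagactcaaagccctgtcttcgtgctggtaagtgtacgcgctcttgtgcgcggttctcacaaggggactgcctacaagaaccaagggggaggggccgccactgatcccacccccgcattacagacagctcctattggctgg
Cox6b1: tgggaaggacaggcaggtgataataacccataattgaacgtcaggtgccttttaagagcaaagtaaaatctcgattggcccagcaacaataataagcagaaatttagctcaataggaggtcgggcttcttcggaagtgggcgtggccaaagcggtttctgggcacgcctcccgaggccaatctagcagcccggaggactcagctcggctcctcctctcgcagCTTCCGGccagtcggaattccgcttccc
Cox7a1: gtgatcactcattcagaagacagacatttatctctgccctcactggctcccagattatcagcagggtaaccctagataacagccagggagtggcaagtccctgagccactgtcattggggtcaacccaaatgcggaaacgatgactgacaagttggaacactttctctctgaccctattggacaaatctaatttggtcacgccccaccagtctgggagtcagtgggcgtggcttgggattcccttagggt
Motifs of 3 regulators known to act at respiratory chain genes were searched on both strands in the same window. CCGGAAG, a site of the ETS factor GABP (also called NRF2 in this field), was found in 16 of the 82 nuclear members with a promoter in the table (19.5%) and in 7.05% of all 27025 promoters. The consensus site of NRF1 was found in 5 (6.10%) and in 0.781% of all. TGACGTCA, the cyclic AMP response element, was found in 4 (4.88%) and in 1.62% of all. The 82 members had passed the signal filter, while the promoters of all genes were not filtered by signal, so the 2 sets are unlike. Of the promoters printed above, that of Cox6b1 held CCGGAAG, and those of Cox6b2 and Cox7a1 held none of the 3. These matches are a description of the letters and do not show binding.

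Cox7a1, the heart and skeletal muscle form of COX7A, had 14.8, 10.1 and 15.8 in RISDD, 15.2 and 15.4 in SDDIR, 0, 0 and 1.84 in SDD, and 3.26, 5.57 and 0 in NIL A, B and C. All 5 HRAS libraries were above the other 6. Only these 5 reached a signal of 10, so Cox7a1 was tested through the groups where it is high, and its direction is tied to that filter. Both calls below were also made with no filter. Cox7a1 rose in RISDD relative to SDD (log2 change 3.34, SE 0.75, limma adjusted p = 0.0044) and in SDDIR relative to SDD (log2 change 3.53, SE 0.83, limma adjusted p = 0.012). SDD held 3 reads in all, so the size of these changes depends on the added constant (with 10 added, 1.15 for RISDD and 1.26 for SDDIR). As reads per library total, Cox7a1 was 15.9 times as high in RISDD (42 reads; 95% exact interval 5.09 to 80.3, counting error only) and 19.2 times as high in SDDIR (31 reads; 5.99 to 98.2) as in SDD. The SDDIR call was lost without either SDDIR library (highest adjusted p = 0.0811).

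Cox7a2, the form found in most tissues, had 992, 926 and 830 in RISDD, 897 and 1009 in SDDIR, 1053, 921 and 905 in SDD, and 1127, 924 and 1127 in NIL. Its groups overlapped in every comparison and it did not pass in any. Cox7a2l, which links complexes III and IV into a supercomplex, had 1892, 1853 and 1737 in RISDD, 1851 and 1819 in SDDIR, 1638, 1379 and 1380 in SDD, and 2041, 1914 and 1531 in NIL A, B and C. It did not pass with all libraries (RISDD against SDD, log2 change 0.32, SE 0.13, limma adjusted p = 0.0751). Without NIL C, it passed as higher in RISDD and SDDIR than in SDD and as lower in SDD than in NIL.

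Ndufa4l2, a paralogue of the complex IV subunit NDUFA4 that is known as a target of the hypoxia-inducible factor HIF-1, had 6.18, 4.04 and 6.32 in RISDD, 8.47 and 5.93 in SDDIR, 31.6, 29.0 and 19.7 in SDD, and 22.8, 35.7 and 13.6 in NIL A, B and C. The HRAS libraries lay below all others. None of them reached a signal of 10, so Ndufa4l2 was tested through SDD and NIL, where it is high, and its direction is tied to that filter. Both calls below were also made with no filter. Ndufa4l2 fell by 2.08 on the log2 scale in RISDD relative to SDD (SE 0.43, limma adjusted p = 0.00279) and fell by 1.75 in SDDIR relative to SDD (SE 0.48, limma adjusted p = 0.025). The SDDIR call was lost when SDDIR A, SDDIR B, SDD A or SDD B was left out (highest adjusted p = 0.167). With 10 added in place of 1, the Ndufa4l2 log2 changes were -1.23 in RISDD and -1.08 in SDDIR. Ndufa4 itself had 1438, 1378 and 1302 in RISDD, 1578 and 1616 in SDDIR, 1665, 1594 and 1460 in SDD, and 1860, 1711 and 1031 in NIL A, B and C, and did not pass in any comparison with all libraries. Without NIL C, it passed as lower in RISDD than in SDD (log2 change -0.20, limma adjusted p = 0.0372).

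The other isoforms were at low signal or steady. Cox4i2, the lung form of COX4, had 12.4, 10.1 and 3.95 in RISDD, 9.32 and 9.48 in SDDIR, 0, 5.80 and 1.23 in SDD, and 0, 1.11 and 0 in NIL, and was too low to be tested. Cox6a2 reached 3.16 in RISDD, 5.93 in SDDIR, 11.7 in SDD and 29.1 in NIL (in NIL C), and Cox8b reached 11.6, in SDD B. Both are heart and skeletal muscle forms. Their counterparts found in most tissues, Cox4i1, Cox6a1 and Cox8a, did not pass in any comparison with all libraries. Cox4i1 came nearest, at -0.41 on the log2 scale in SDD relative to NIL (SE 0.13, limma adjusted p = 0.0516), and passed without NIL C at -0.27 (limma adjusted p = 0.018).

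**Figure D4:**
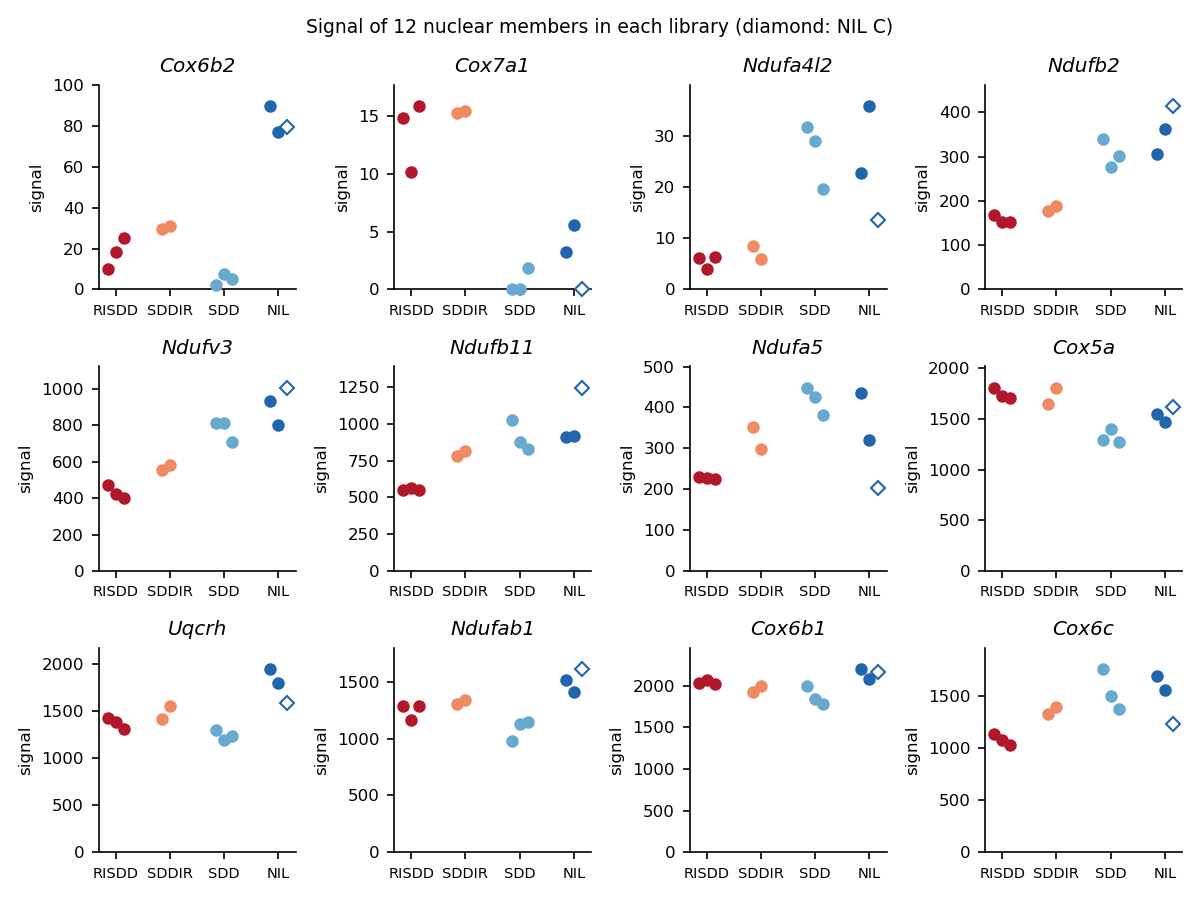
Signal (vertical axis, from 0) of 12 nuclear members in each library of RISDD, SDDIR, SDD and NIL; open diamonds are NIL C. Cox6b2 is highest in NIL, Cox7a1 is above 10 only in the 5 HRAS libraries, and Ndufb2, Ndufv3 and Ndufa4l2 are lower in those 5 than in every SDD library.

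Of the other complex IV subunits, Cox5a, a matrix-side structural subunit, had 1804, 1728 and 1706 in RISDD, 1643 and 1802 in SDDIR, 1291, 1403 and 1274 in SDD, and 1545, 1465 and 1614 in NIL. The HRAS libraries lay above all others. Cox5a rose by 0.40 on the log2 scale in RISDD (SE 0.10, limma adjusted p = 0.00945) and by 0.38 in SDDIR (SE 0.11, limma adjusted p = 0.037), each relative to SDD. The SDDIR call was lost in 11 of 25 alternatives, among them the removal of any single RISDD, SDDIR or SDD library (highest adjusted p = 0.253). Cox6c, a small membrane subunit, had 1140, 1085 and 1037 in RISDD, 1332 and 1400 in SDDIR, 1760, 1507 and 1376 in SDD, and 1702, 1562 and 1239 in NIL A, B and C. It fell by 0.50 on the log2 scale in RISDD relative to SDD (SE 0.14, limma adjusted p = 0.0164), and all RISDD libraries lay below the others. Cox6c was named outside the rules for named genes.

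Complex I passes electrons from NADH to coenzyme Q, and its catalytic core is surrounded by accessory subunits that are needed for assembly or stability. Of 31 accessory members, 7 fell in RISDD relative to SDD, 0 rose, and 2 fell in SDDIR relative to SDD. The 7 are 22.6% of the accessory members, the same share as that of all genes called lower there (22.6%). Without NIL C, 2 of the 31 rose and 13 fell in RISDD relative to SDD, against 32.2% and 31.3% of all genes. In SDDIR relative to SDD, 5 rose and 2 fell without NIL C, against 21.6% and 23.2%. None of the 7 nuclear core subunits and none of the 8 assembly factors passed in those 2 comparisons by limma (0 of both had an unadjusted p under 0.05, and edgeR and DESeq2 called 0). Of all 14207 genes, 7100 in RISDD against SDD and 4800 in SDDIR against SDD had an unadjusted p under 0.05. Without NIL C, 1 rose and 1 fell in RISDD relative to SDD among the core subunits and likewise among the assembly factors, and 1 core subunit rose in SDDIR relative to SDD. Ndufb2, an accessory subunit of the membrane arm, had 168, 152 and 152 in RISDD, 177 and 189 in SDDIR, 341, 277 and 302 in SDD, and 307, 363 and 413 in NIL. It fell by 0.95 in RISDD (1.94-fold, SE 0.16, limma adjusted p = 0.000649) and fell by 0.74 in SDDIR (1.67-fold, SE 0.18, limma adjusted p = 0.0121), each relative to SDD on the log2 scale. The SDDIR call was lost without SDDIR A or SDDIR B and under the GC correction (highest adjusted p = 0.0955).

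Ndufv3, an accessory subunit of the NADH-binding module, had 474, 423 and 401 in RISDD, 555 and 581 in SDDIR, 813, 814 and 707 in SDD, and 932, 804 and 1006 in NIL. The groups with HRAS did not overlap those without, and RISDD lay below SDDIR. Ndufv3 fell by 0.85 in RISDD (SE 0.13, limma adjusted p = 0.000416) and fell by 0.45 in SDDIR (SE 0.15, limma adjusted p = 0.0482), each relative to SDD on the log2 scale. The SDDIR call held in only 10 of 25 alternatives (highest adjusted p = 0.234).

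Ndufa5, an accessory subunit of the matrix arm, had 230.0, 227 and 224 in RISDD, 351 and 298 in SDDIR, 448, 425 and 380.3 in SDD, and 435, 321 and 202 in NIL A, B and C. Ndufb11, a membrane-arm subunit encoded on the X chromosome, had 553, 564 and 548 in RISDD, 780.0 and 819 in SDDIR, 1025, 880 and 833 in SDD, and 913, 919 and 1245 in NIL. Ndufa3, a small membrane subunit, had 375, 370.1 and 421 in RISDD, 592 and 503 in SDDIR, 698, 573 and 640 in SDD, and 808, 629 and 1233 in NIL A, B and C. For these 3 genes every RISDD library lay below every SDDIR and SDD library. Relative to SDD, Ndufa5 fell by 0.87 (SE 0.24, limma adjusted p = 0.0127), Ndufb11 fell by 0.71 (SE 0.14, limma adjusted p = 0.00247) and Ndufa3 fell by 0.71 (SE 0.22, limma adjusted p = 0.022) in RISDD, on the log2 scale. The Ndufa3 call did not hold when RISDD A, RISDD B, SDD A or SDD C was left out (highest adjusted p = 0.0789). Of the other accessory subunits, Ndufa1 fell by 0.56 (SE 0.13, limma adjusted p = 0.00458) and Ndufb6 fell by 0.40 (SE 0.13, limma adjusted p = 0.0334) in RISDD relative to SDD. Ndufb6 was named outside the rules for named genes.

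In SDD relative to NIL, the 2 further genes that passed were Uqcrh and Ndufab1. Uqcrh, the hinge subunit of complex III, had 1305, 1198 and 1239 in SDD, and 1945, 1806 and 1585 in NIL A, B and C. It fell by 0.51 on the log2 scale (1.42-fold, SE 0.11, limma adjusted p = 0.0137). Ndufab1, the mitochondrial acyl carrier protein, which is also part of complex I, had 976, 1128 and 1149 in SDD, and 1512, 1411 and 1606 in NIL A, B and C, and fell by 0.48 (SE 0.11, limma adjusted p = 0.0172). SDD and NIL did not overlap for either. The Uqcrh call was lost without SDD B or SDD C (highest adjusted p over all alternatives 0.104) and that of Ndufab1 without SDD A (highest 0.119), and both were lost with only SDD and NIL in the fit.

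Complex II, the succinate dehydrogenase of the citric acid cycle, is encoded by 4 nuclear genes. Sdha, its flavoprotein, had 2863, 2683 and 2869 in RISDD, 3062 and 3146 in SDDIR, 3569, 3473 and 3473 in SDD, and 3792, 3417 and 4069 in NIL. It fell by 0.32 on the log2 scale in RISDD relative to SDD (1.25-fold, SE 0.10, limma adjusted p = 0.0271). This call held in 18 of 25 alternatives and was lost without any single RISDD or SDD library (highest adjusted p = 0.104). Sdhb, the iron-sulphur subunit, and the membrane anchors Sdhc and Sdhd did not pass in any comparison with all libraries. Their log2 changes ran from -0.27 (Sdhb, SDD against NIL, SE 0.12, limma adjusted p = 0.149) to 0.29 (Sdhc, SDDIR against SDD, SE 0.11, limma adjusted p = 0.0916). Sdhc passed for SDDIR against SDD without NIL C (limma adjusted p = 0.00863).

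None of the 18 ATP synthase members passed in any comparison with all libraries (limma). At an unadjusted p under 0.05 there were 3 for SDD against NIL, 2 for SDDIR against SDD, 1 for RISDD against SDD and 0 for RISDD against SDDIR. Of all 14207 genes, 4772, 4800, 7100 and 3375 had such a p in these comparisons. Among the 18, edgeR called 0 in all 4, and DESeq2 called 3 lower in SDD than in NIL, 1 higher in SDDIR and 1 higher in RISDD, both relative to SDD. Atp5mc1, Atp5mc2 and Atp5mc3, which encode the same ring subunit with different import sequences, had log2 changes from -0.34 (Atp5mc3, SDD against NIL, SE 0.12, limma adjusted p = 0.0691) to 0.14 (Atp5mc2, SDDIR against SDD, SE 0.16, limma adjusted p = 0.6). Atp5if1, an inhibitor of the synthase, had 1194, 1095 and 1125 in RISDD, 1102 and 1207 in SDDIR, 976, 898 and 877 in SDD, and 1156, 878 and 1420 in NIL A, B and C. All HRAS libraries were above SDD for Atp5if1. Its log2 change of 0.31 in RISDD relative to SDD did not pass with all libraries (SE 0.16, limma adjusted p = 0.149) and passed without NIL C (limma adjusted p = 0.0202).

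Outside the rule for named genes, 3 further members were chosen after their values were seen. Cox17, the copper chaperone of complex IV, had 531, 487 and 525 in RISDD, 515 and 539 in SDDIR, 349.5, 379 and 347 in SDD, and 378, 385 and 794 in NIL A, B and C. Atp5mj, a small membrane subunit of the ATP synthase, had 773, 799 and 780.1 in RISDD, 848 and 876 in SDDIR, 559, 613 and 553 in SDD, and 708, 648 and 340 in NIL A, B and C. Uqcrb, a complex III subunit at the coenzyme Q site, had 762, 787 and 753 in RISDD, 816 and 831 in SDDIR, 1059, 1105 and 987 in SDD, and 1057, 1023 and 338 in NIL A, B and C. In each of these 3 genes the HRAS groups were apart from SDD, and NIL C was the library farthest from the rest. With all libraries none passed (for RISDD against SDD, limma adjusted p = 0.114 for Cox17, 0.147 for Atp5mj and 0.332 for Uqcrb). Without NIL C all 3 passed in both HRAS comparisons with SDD, Cox17 and Atp5mj as higher and Uqcrb as lower.

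RISDD and SDDIR carry the same 2 proteins in opposite order. No nuclear member passed between them with all libraries (limma). Still, 84 of 100 estimates were below 0, with a median log2 change of -0.17, against a median of 0.008 for all genes tested. The groups did not overlap, with RISDD lower, for 60 of the 100, against 29.0% of all genes, and with RISDD higher for 2, against 31.0%. The median was -0.21 with upper-quartile scaling, -0.19 with quantile scaling and -0.28 with scaling to genes that are not mitochondrially encoded, for which the median of all genes was itself -0.10. By role, the median was -0.25 for the 31 complex I accessory members, -0.35 for the 8 complex I assembly factors, -0.21 for the 7 complex I core members, -0.14 for the 18 ATP synthase members, -0.07 for the 15 complex IV subunits and 0.02 for the 9 complex IV assembly factors.

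Without NIL C, 16 passed as lower in RISDD than in SDDIR and 1 as higher, against 14.6% and 15.0% of all genes. Of the 16, 11 were among the 31 complex I accessory members (35.5% of them). The values of Ndufb4 and its near-identical copy Ndufb4c, both among the 11, are uncertain, since reads could be divided between them. Ndufb11 had a log2 change of -0.53 (SE 0.095, limma adjusted p = 0.00282), and Ndufc1, whose signals were 307, 277 and 307 in RISDD and 460 and 424 in SDDIR, one of -0.57 (SE 0.13, limma adjusted p = 0.00949). The member that passed as higher was Ndufaf4, a complex I assembly factor, at 0.40 (SE 0.12, limma adjusted p = 0.0279). Its signals were 453, 481 and 475 in RISDD and 353 and 359 in SDDIR. Ndufc1 and Ndufaf4 were named after their values were seen.

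For the other comparisons, the median log2 change of the 100 nuclear members was -0.18 in SDD against NIL (-0.13 without NIL C; all genes 0.053 with it), 0.09 in SDDIR against SDD (all genes 0.012) and -0.05 in RISDD against SDD (all genes 0.016). SDD and NIL did not overlap for 2 nuclear members with SDD higher and 27 with SDD lower, against 19.0% and 17.3% of all genes. SDDIR and SDD did not overlap for 38 with SDDIR higher and 13 with SDDIR lower, against 32.6% and 32.3%. RISDD and SDD did not overlap for 26 with RISDD higher and 29 with RISDD lower, against 36.1% and 34.6%.

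NIL C is shown alone because it differed from NIL A and B in both its nuclear and its mitochondrially encoded members. All 13 mitochondrially encoded genes were lower in it. Of the 100 nuclear members, 53 were above and 35 below both other NIL libraries, 9 by more than 2-fold above their mean and 8 by more than 2-fold below. For 49 nuclear members NIL C was the highest of the 11 libraries, and for 23 the lowest. Uqcr11, a small complex III subunit, had 1885 in NIL C against 755 and 750.2 in NIL A and B. Cox20, a complex IV assembly factor, had 29.1 in NIL C against 136 and 150.5. Uqcr11 and Cox20 lie at the ends of the range and were named after their values were seen. The deviation of NIL C rose with the GC content of the reference transcripts over the 100 nuclear members (Pearson r = 0.593, Spearman rho = 0.620), and over 14177 genes (r = 0.635). These genes share the same 3 libraries. The 13 mitochondrially encoded genes had GC contents of 31.9% to 41.1%, and the part of GC content in their low values was not tested. In the other 10 libraries, the same r over the nuclear members lay between -0.109 and 0.109.

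**Figure D5:**
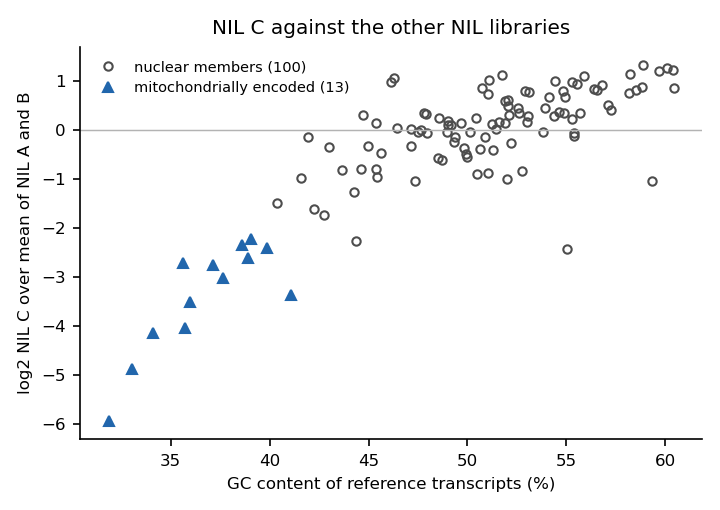
Log2 ratio of NIL C to the mean of NIL A and B (vertical axis) against the GC content of each gene's reference transcripts in percent (horizontal axis); circles are the 100 nuclear members and triangles the 13 mitochondrially encoded genes. Nuclear members of low GC content lie mostly below 0 and those of high GC content mostly above, and all 13 triangles lie below 0.

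Genes that act on the respiratory chain without being part of the rule were taken from 7 lists. The shares of all genes higher and lower were 9.32% and 8.26% in SDD against NIL, and 8.66% and 13.9% in SDDIR against SDD. They were 20.0% and 22.6% in RISDD against SDD, and 4.64% and 5.05% in RISDD against SDDIR. Of 14 regulators of mitochondrial biogenesis, 4 rose and 1 fell in SDD relative to NIL, 0 rose and 2 fell in SDDIR relative to SDD, 2 rose and 3 fell in RISDD relative to SDD, and 0 rose and 1 fell in RISDD relative to SDDIR. Without NIL C, 5 rose and 4 fell in RISDD relative to SDD, against 32.2% and 31.3% of all genes. Esrra, the estrogen-related receptor alpha, a known activator of oxidative phosphorylation genes, had 597, 622 and 729.5 in RISDD, 485 and 407 in SDDIR, 307, 306 and 260 in SDD, and 608, 605 and 980.3 in NIL A, B and C. It fell by 1.29 on the log2 scale in SDD relative to NIL (SE 0.20, limma adjusted p = 0.00228) and rose by 1.16 in RISDD relative to SDD (SE 0.20, limma adjusted p = 0.000797). SDD was the lowest group for Esrra, and a link to the mitochondrially encoded share was not tested. Its relative Esrrg had 21.03, 16.2 and 8.69 in RISDD, 53.4 and 59.3 in SDDIR, 362, 299.8 and 195 in SDD, and 167, 166 and 62.1 in NIL A, B and C. Relative to SDD, Esrrg had a log2 change of -4.17 in RISDD (SE 0.44, limma adjusted p = 3.08e-05) and of -2.28 in SDDIR (SE 0.49, limma adjusted p = 0.00718).

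Myc, a transcription factor with many metabolic targets, had 1659, 1841 and 1811 in RISDD, 1855 and 1635 in SDDIR, 2946, 4055 and 4367 in SDD, and 1414, 1485 and 3088 in NIL A, B and C. It rose in SDD relative to NIL (2.004-fold, SE 0.27 on the log2 scale, limma adjusted p = 0.0298). Relative to SDD it fell 2.11-fold in RISDD (SE 0.27, limma adjusted p = 0.00831) and 2.15-fold in SDDIR (SE 0.30, limma adjusted p = 0.0244). Of 18 genes of mitochondrial DNA transcription and maintenance, only Tfb2m passed with all libraries, in RISDD relative to SDD. Without NIL C, 5 rose and 1 fell there, against 32.2% and 31.3% of all genes. In SDDIR relative to SDD, 4 rose and 0 fell, against 21.6% and 23.2%. Tfb2m, which lets the mitochondrial RNA polymerase open its promoters, had 899, 998 and 926 in RISDD, 712 and 665 in SDDIR, 427, 480 and 449 in SDD, and 509, 599 and 288 in NIL A, B and C, and rose by 1.06 (SE 0.23, limma adjusted p = 0.00336).

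Of 20 genes of mitochondrial RNA processing and stability, 6 rose and 2 fell in RISDD relative to SDD, against 20.0% and 22.6% of all genes. In SDDIR relative to SDD, 2 rose and 0 fell, against 8.66% and 13.9%. In SDD relative to NIL, 1 rose and 0 fell, against 9.32% and 8.26%, and 0 passed in RISDD relative to SDDIR. Without NIL C, 11 rose and 2 fell in RISDD relative to SDD, against 32.2% and 31.3% of all genes. In SDDIR relative to SDD, 10 rose and 0 fell without NIL C, against 21.6% and 23.2%. Trmt10c, a subunit of the mitochondrial RNase P that frees mRNAs from the transfer RNAs before them, had 653, 883 and 807 in RISDD, 600.5 and 577 in SDDIR, 259, 371 and 360.0 in SDD, and 347, 410.2 and 199 in NIL A, B and C. It rose by 1.25 in RISDD relative to SDD (SE 0.26, limma adjusted p = 0.00269). Pde12, which shortens mitochondrial poly(A) tails, rose by 0.92 in RISDD (SE 0.14, limma adjusted p = 0.000355) and by 0.67 in SDDIR (SE 0.15, limma adjusted p = 0.0101), each relative to SDD. Pnpt1, a polynucleotide phosphorylase of mitochondria, had 757, 751 and 959 in RISDD, 1816 and 1225 in SDDIR, 1615, 2723 and 2575 in SDD, and 1000.2, 1323 and 341 in NIL A, B and C. It rose by 1.55 in SDD relative to NIL (2.92-fold, SE 0.43, limma adjusted p = 0.0324), a fold that was 1.95 without NIL C (limma adjusted p = 0.0223), and fell by 1.46 in RISDD relative to SDD (SE 0.43, limma adjusted p = 0.0186).

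Of 40 assembly factors outside the rule, 6 rose and 6 fell in RISDD relative to SDD, against 20.0% and 22.6% of all genes. In RISDD relative to SDDIR, 1 rose and 2 fell, against 4.64% and 5.05%. Without NIL C, these counts were 9 and 8 (32.2% and 31.3% of all genes), and 4 and 7 (15.0% and 14.6%). Sco2, a copper chaperone for complex IV, had 359, 333 and 293 in RISDD, 113 and 166 in SDDIR, 121, 163 and 154 in SDD, and 196, 276 and 395 in NIL A, B and C. It was higher in RISDD than in SDDIR by 1.25 (SE 0.29, limma adjusted p = 0.0235) and than in SDD by 1.17 (SE 0.26, limma adjusted p = 0.00414), and lower in SDD than in NIL by 0.94, a log2 change of -0.94 (SE 0.26, limma adjusted p = 0.0325). Timmdc1, a complex I assembly factor, rose by 0.86 in SDDIR relative to SDD (SE 0.13, limma adjusted p = 0.00115). Coa8, a complex IV assembly factor, fell by 0.94 in RISDD (limma adjusted p = 0.00041) and fell by 0.65 in SDDIR (limma adjusted p = 0.0157), each relative to SDD.

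Of 19 citric acid cycle genes, 4 rose and 3 fell in RISDD relative to SDD, against 20.0% and 22.6% of all genes. In SDDIR relative to SDD, 2 rose and 1 fell, against 8.66% and 13.9%. In SDD relative to NIL 0 passed, and 1 fell in RISDD relative to SDDIR, against 5.05%. Without NIL C, 8 rose and 4 fell in RISDD relative to SDD (32.2% and 31.3% of all genes). In SDDIR relative to SDD, 9 rose and 2 fell (21.6% and 23.2%). In SDD relative to NIL, 1 rose and 4 fell (15.3% and 13.8%). In RISDD relative to SDDIR, 1 rose and 8 fell (15.0% and 14.6%). Pcx, pyruvate carboxylase, which replenishes oxaloacetate, had 95.2, 115 and 105 in RISDD, 285 and 350 in SDDIR, 651, 652 and 480 in SDD, and 575, 536 and 868 in NIL A, B and C. It fell by 2.48 in RISDD relative to SDD (5.57-fold, SE 0.21, limma adjusted p = 7.64e-06), fell by 0.90 in SDDIR relative to SDD (SE 0.23, limma adjusted p = 0.0191) and fell by 1.58 in RISDD relative to SDDIR (SE 0.23, limma adjusted p = 0.00299). Dlst, a subunit of the oxoglutarate dehydrogenase complex, rose by 0.78 in RISDD (SE 0.099, limma adjusted p = 0.000126) and by 0.57 in SDDIR (SE 0.11, limma adjusted p = 0.00424), each relative to SDD. Of 15 genes of coenzyme Q synthesis and cytochrome c, 1 rose and 1 fell in RISDD relative to SDD, against 20.0% and 22.6% of all genes. Without NIL C, 3 and 5 did so, against 32.2% and 31.3%. With all libraries, Coq3 rose by 0.85 in RISDD relative to SDD (limma adjusted p = 0.00192). Of 30 genes of mitochondrial import and cristae, 6 rose and 1 fell in RISDD relative to SDD, against 20.0% and 22.6% of all genes. Among those that rose was Tomm40, the import pore of the outer membrane, at 0.84 (SE 0.28, limma adjusted p = 0.0319). In the other 3 comparisons 0 passed (limma). Without NIL C, 16 of the 30 rose and 2 fell in RISDD relative to SDD, against 32.2% and 31.3% of all genes. In SDDIR relative to SDD, 10 rose and 2 fell without NIL C, against 21.6% and 23.2%.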

How the data were processed

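The values are signal: gene counts that the authors had already divided by a constant per library and deposited. Per the submitters' processing notes, Trim Galore 0.6.10 and Salmon 1.10.3 were used with GRCm39. The sources used here do not name the tool that scaled the libraries. RNA was selected by poly(A) and made into directional libraries, per the labels' protocols. The heading of SDDIR B stands on 2 columns that match in all 23077 rows, and it was used once. Whether it is replicate B or C is unknown, and the other SDDIR library was not analysed here.

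The 14207 genes that reached 10 in 3 or more libraries were fitted together over 4 groups. The fit used limma 3.58.1 (R 4.3.3) with trend and robust moderation, and its input was log2(value + 1). A gene passed at a Benjamini-Hochberg adjusted p under 0.05. Fold changes are on that scale. Alternatives included edgeR 4.0.16 and DESeq2 1.42.0 on the recovered whole reads. The code was tested on simulated data.

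Genes were named if they were among the 6 largest changes in each direction with a mean of at least 100, isoforms of a list, mitochondrially encoded, or among up to 3 of a related list. A few genes, said to be so, were added after their values were seen. Cox7a1, Cox6b2, Ndufa4l2 and their counterparts, the Sdh and Atp5mc genes and Atp5if1 came from the isoform list. Cox5a, Uqcrh, Ndufab1, Ndufb2, Ndufv3, Ndufa5, Ndufb11, Ndufa3 and Ndufa1 came from the rule on size. Cox6c and Ndufb6 met neither rule. Members and lists were chosen with earlier results of these data known. The planned permutation test of the mitochondrially encoded share is not reported, since it would test a sum over chosen genes. GC content and promoter and junction sequences came from GRCm38.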

Additional observations from a re-analysis of the deposited data

How the results depend on the processing

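Counts of members that passed are given here as higher and lower. Under the correction for GC content, added after seeing the data, SDD against NIL gave 1 and 17 nuclear members (14.1% and 13.3% of all genes) and 3 mitochondrially encoded ones, SDDIR against SDD gave 11 and 3 (17.2% and 19.8%), with 1 mitochondrially encoded, RISDD against SDD gave 8 and 17 (28.3% and 28.2%), with 2 mitochondrially encoded, and RISDD against SDDIR gave 1 and 4 (10.6% and 11.2%). With array weights, SDDIR against SDD gave 22 and 7 (23.3% and 25.3% of all genes), with 4 mitochondrially encoded. RISDD against SDD gave 19 and 28 (34.7% and 34.1%), with 6 mitochondrially encoded. RISDD against SDDIR gave 1 and 28 (19.1% and 18.5%). With only the 2 groups compared, SDD against NIL gave 1 lower (2.29% of all genes). SDDIR against SDD gave 13 and 5 (16.9% and 20.8%), with 6 mitochondrially encoded. RISDD against SDD gave 15 and 23 (31.9% and 31.2%), with 7 mitochondrially encoded. RISDD against SDDIR gave 1 and 26 (18.8% and 15.9%). DESeq2 gave 19 lower for SDD against NIL (13.1% of all genes) and 4 lower for RISDD against SDDIR (8.21%). It gave 5 higher for both HRAS groups against SDD (11.7% for SDDIR and 22.4% for RISDD). edgeR, upper-quartile and quantile scaling each gave 5 lower for SDD against NIL (9.06%, 9.5% and 10.0% of all genes). Quantile scaling gave 1 lower for RISDD against SDDIR (5.08%). Scaling to genes not mitochondrially encoded gave 1 higher and 2 lower for SDD against NIL (10.9% and 6.61% of all genes). It gave 3 lower for RISDD against SDDIR (6.88%). For SDDIR against SDD it gave 7 and 2, against 3 and 3 without this scaling. The share of all genes higher there rose too, from 8.66% to 11.2%. As a share of the nuclear members, each of these counts was below that of all genes. With this scaling, the median log2 change of all genes became 0.16 for SDD against NIL and -0.10 for RISDD against SDDIR. Quantile scaling gave 4 and 2 for SDDIR against SDD (12.1% and 12.6%). All-gene counts moved too, to 18.5% lower with array weights and 15.9% lower with only the 2 groups for RISDD against SDDIR. The causes were not tested.

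With 1 library left out in turn, nuclear members that passed ranged over 0 to 1 higher and 2 to 21 lower for SDD against NIL, where 21 came without NIL B (9.12% of all genes) and 14 without NIL C. For SDDIR against SDD, they were lowest without SDDIR A or SDDIR B, where the calls over all genes fell too. They were highest there without NIL C, at 18 and 5. They ranged over 2 to 15 and 6 to 25 for RISDD against SDD, the highest without NIL C and 6 without RISDD B, and over 0 to 1 and 0 to 16 for RISDD against SDDIR, the highest without NIL C. Mitochondrially encoded members ranged over 0 to 10, 0 to 5 and 0 to 8 in SDD against NIL, SDDIR against SDD and RISDD against SDD, the highest again without NIL C, and stayed at 0 in RISDD against SDDIR. Without NIL C, the shares of all genes higher and lower were 15.3% and 13.8% for SDD against NIL, and 21.6% and 23.2% for SDDIR against SDD. They were 32.2% and 31.3% for RISDD against SDD, and 15.0% and 14.6% for RISDD against SDDIR. Without RISDD B, 18.9% of all genes were lower in RISDD than in SDD. A fit without an SDDIR library leaves 1, assumed to vary like the other groups. The difference in mitochondrially encoded share ranged from -0.986 to 0.746 percentage points in SDD minus NIL, from 0.784 to 0.9501 in SDDIR minus SDD, from 0.540 to 0.885 in RISDD minus SDD and from -0.354 to -0.00903 in RISDD minus SDDIR.

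Leaving out NIL C turned all 13 mitochondrially encoded estimates for SDD against NIL below 0, and 10 of them passed. On the log2 scale, for those 10 the lowest value (without NIL C) and the highest (without NIL B) were -0.40 and 1.40 for mt-Atp6, -0.37 and 0.86 for mt-Co1, -0.48 and 0.71 for mt-Co2, -0.51 and 0.81 for mt-Co3, -0.52 and 0.62 for mt-Cytb, -0.54 and 1.01 for mt-Nd1, -0.59 and 1.51 for mt-Nd2, -0.62 and 0.79 for mt-Nd4, -0.60 and 1.09 for mt-Nd4l, and -0.73 and 0.69 for mt-Nd5. Under the GC correction, mt-Cytb at -0.45, mt-Nd4 at -0.64 and mt-Nd5 at -0.63 did so too. edgeR and DESeq2 with all libraries put 10 of the 13 below 0 in that comparison.

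Deviations of libraries with the same letter correlated between 0.000225 and 0.216. Pairs with different letters were not set beside them, so whether a letter stands for a shared culture or batch was not tested. A replicate block gave 2 and 2 for SDDIR against SDD (8.91% and 14.7% of all genes) and 4 and 12 for RISDD against SDD (20.8% and 23.6%). For SDD against NIL it gave 0 and 3 (10.4% and 9.17%). A share without ribosomal RNA was not run, as no such RNA was among the members.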
